A study of Mus musculus with 12 samples.

Results

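The genes described here encode the machinery by which the endoplasmic reticulum (ER) takes in, folds, glycosylates, inspects and ships secreted proteins, together with the sensors of the unfolded protein response. A list of 53 genes was given by name, and 50 of them had a probe set that names that gene alone, out of 11807 genes on the array. Where several probe sets name a gene, the one brightest on average over the 12 arrays was used. No probe set naming Pdia3, Sec61g or Sec11a alone was used. By role, 14 of 15 listed genes of chaperones and folding were measured, 12 of 14 of translocation, 5 of 5 of glycan transfer, 6 of 6 of degradation and 7 of 7 of stress sensing. The other 6 genes, which serve retrieval to the ER and COPII transport out of it, were kept as a group of their own.

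The arrays hold RNA of whole stomach and whole colon from untreated 16 week old mice of strain C57BL/6 with 3 Spdef genotypes, wild type (WT), heterozygous (HET) and knockout (KO). Spdef is a transcription factor known for its part in the maturation of goblet cells and gastric mucous cells. There were 2 arrays in each of the 6 groups of tissue and genotype. The labels give neither the sex of the mice, nor how the allele was made, nor whether arrays of the same group are different animals; every p-value is therefore set against the spread of these samples alone, which may be technical.

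A protein bound for secretion enters the ER through the Sec61 channel, loses its signal peptide, receives N-linked glycans from the oligosaccharyltransferase and folds with the help of chaperones such as Hspa5 (BiP). Proteins that fail to fold are drawn back into the cytosol and degraded, and folded ones leave in COPII vesicles. When unfolded protein accumulates, the sensors Ern1 and Ern2 (IRE1 alpha and beta), Eif2ak3 (PERK) and Atf6 start a response in which Xbp1, Atf4 and cleaved Atf6 raise transcription of this machinery. Goblet cells, gastric mucous cells, zymogenic chief cells, pancreatic acinar cells and plasma cells are known for a large ER.

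Several of these genes are known targets of the response through short promoter motifs, and the stretches below are shown because they mark which members carry one. Promoter windows of 250 bases before the start, from RefSeq on GRCm38.p6, were found for 40 of the 50 genes. Each was searched on both strands for the ER stress element (CCAAT and CCACG with 9 bases of any kind between them), the ER stress element II (ATTGG and CCACG with 1 base between them) and the unfolded protein response element TGACGTGG. The first was found in 8 of 40 windows (20%), against 35 of 27025 genes with a window (0.130%), the second in 1 of 40 (2.5%, against 0.037%) and the third in 2 of 40 (5.0%, against 0.603%). The lines are on the strand of the gene, from 5′ to 3′, and capitals mark the motif's fixed letters; Calr and Creld2 carry it on the opposite strand.
Hspa5, chr2:34772015-34772053, plus strand: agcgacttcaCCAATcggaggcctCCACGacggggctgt
Pdia6, chr12:17266481-17266519, plus strand: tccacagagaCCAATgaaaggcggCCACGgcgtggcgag
Creld2, chr15:88819510-88819548, plus strand: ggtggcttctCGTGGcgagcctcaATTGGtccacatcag
Calr, chr8:84847065-84847103, minus strand: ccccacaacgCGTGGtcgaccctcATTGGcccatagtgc
Canx, chr11:50325790-50325828, minus strand: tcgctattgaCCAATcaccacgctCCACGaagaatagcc
Dnajc3, chr14:118937817-118937855, plus strand: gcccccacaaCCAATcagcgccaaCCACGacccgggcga
Syvn1, chr19:6046522-6046560, plus strand: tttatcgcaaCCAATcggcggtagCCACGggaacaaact
Herpud1, element II, chr8:94386367-94386397, plus strand: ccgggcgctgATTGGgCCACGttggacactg
Kdelr3, unfolded protein response element on the opposite strand, chr15:79516368-79516395, plus strand: ggccgccccgCCACGTCAccgcgcggcc
Hsp90b1 holds the ER stress element at 2 places, and Sec24d holds the third motif. A match is a description of letters in this window and not a measured binding site. Since the list includes known targets of the response, the higher shares among members are a description, with no test.

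Levels are log2(intensity + 16) after quantile normalization, and 49 of the 50 genes reached the 40th percentile of all probe sets (a level of 6.53) in at least 2 of 6 arrays of both tissues. The exception was Ern1, at 5.23 to 6.08 in stomach and 4.66 to 6.5 in colon, which was not tested. Markers followed the tissue labels, with chief cell genes at a mean of 13.50 to 13.83 in stomach arrays and 4.64 to 5.11 in colon arrays. The array labelled colon WT 2 stood apart, with a mean correlation of 0.875 with the other colon arrays (0.922 to 0.951 for the others), small intestine markers at a mean of 12.25 (5.44 to 6.62 in the others) and colonocyte markers at 9.65 (12.45 to 13.40). Spdef was read at 9.19 and 8.96 in stomach WT, 9.06 and 8.94 in HET, and 8.86 and 8.63 in KO. In colon it was 10.97 and 8.74 in WT, 10.27 and 9.81 in HET, and 9.08 and 9.25 in KO. Its KO minus WT difference was -0.33 in stomach (adjusted p = 1.0, limma) and -0.69 in colon (adjusted p = 0.619). Without colon WT 2 the colon value was -1.8 (adjusted p = 0.0113) and without colon WT 1 it was 0.42 (adjusted p = 0.266), and since the labels do not give the deleted part, this probe set does not check the genotype labels.

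The first comparison set colon against stomach over the 3 genotypes. Of the 49 genes, 7 were higher in colon and 11 lower at an adjusted p under 0.05 (limma, Benjamini-Hochberg over 8393 genes). Together that is 36.7% of the members, against 48.8% of all genes tested; by direction, 21.4% of all genes were higher in colon and 27.3% lower. The members' median difference was -0.08 and that of all genes -0.05, and the members went both ways, 18 positive and 31 negative. The members' median rested on the colon KO arrays: it was 0.03 (27 positive) without colon KO 1 and -0.24 (13 positive) without colon KO 2. Because these are bulk tissues, fewer cells of a type and less RNA per cell cannot be told apart.

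**Figure D1:**
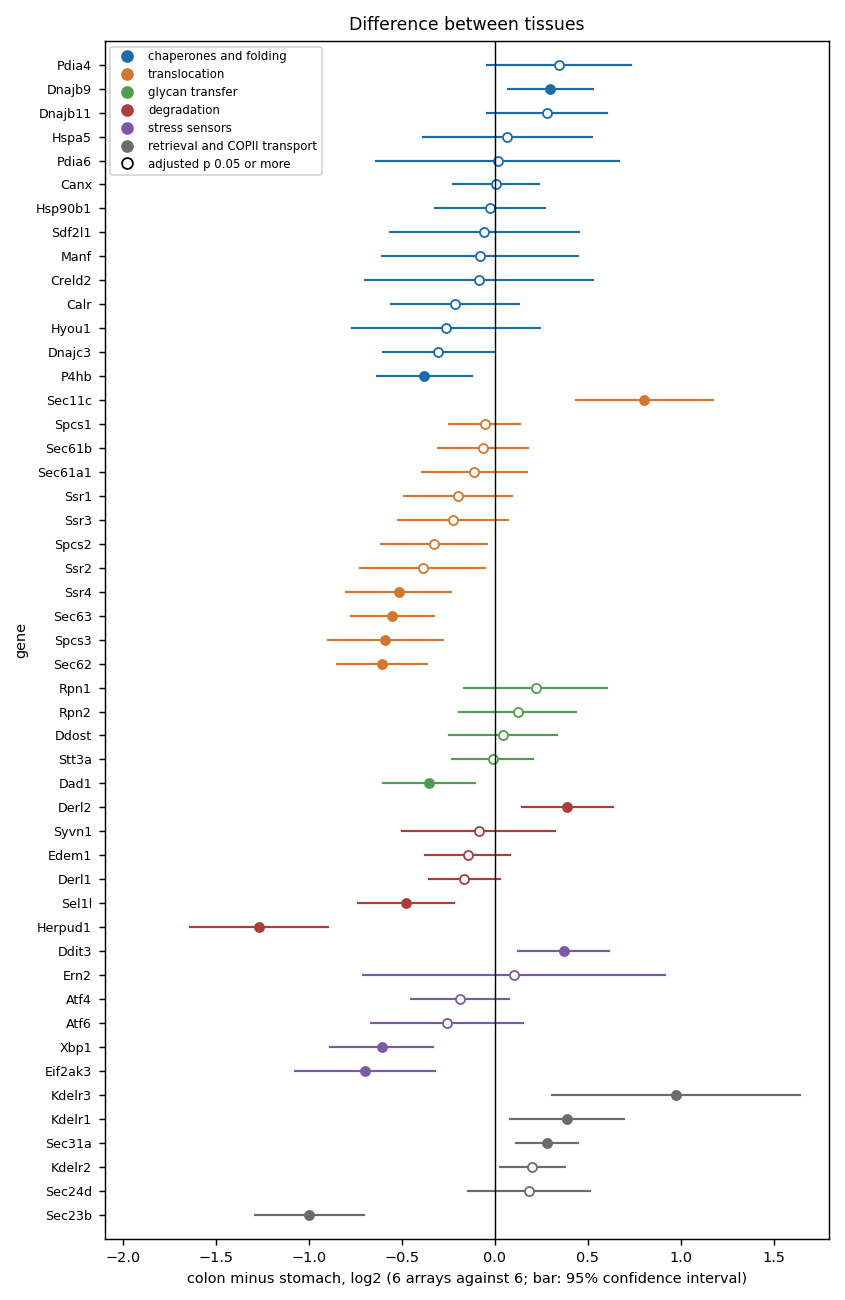
Difference between colon and stomach (horizontal axis, log2) for the 49 genes tested (vertical axis), ordered by role, with bars for the 95% confidence interval over 6 arrays of each tissue and open circles for an adjusted p of 0.05 or more. Herpud1 and Sec23b lie farthest to the left and Kdelr3 and Sec11c farthest to the right, while the 14 chaperones lie between -0.38 and 0.34.

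Among the stress sensors and their transcription factors, Xbp1, the factor made active when IRE1 splices its messenger RNA, fell in colon. Its levels ran from 12.95 to 13.48 in stomach (median 13.09) and from 12.16 to 12.86 in colon (median 12.54), without overlap. The difference was -0.61 (SE 0.12, adjusted p = 0.00293), and the 4 Xbp1 probe sets gave -0.55 to -0.62. The arrays do not separate spliced from unspliced Xbp1.

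Eif2ak3, the PERK kinase, ran from 9.33 to 9.68 in stomach (median 9.45) and from 8.06 to 9.24 in colon (median 8.83), lower in colon by a log2 difference of -0.70 (SE 0.17, adjusted p = 0.00739). Ddit3 (CHOP), a factor induced downstream of PERK, ran from 8.06 to 8.43 in stomach and from 8.30 to 8.79 in colon, higher by 0.37 (SE 0.11, adjusted p = 0.0188). The kinase and its downstream factor thus differed in opposite directions between the tissues. Atf4, the translationally controlled factor between them, differed by -0.19 and Atf6 by -0.26, and neither passed; without colon WT 2, Atf6 passed at -0.43 (adjusted p = 0.0155), and without colon KO 2, Atf4 passed at -0.28 (adjusted p = 0.0449). Ern2, the IRE1 form of mucous epithelia, had the widest interval, 0.11 (95% interval -0.71 to 0.92), with colon levels from 7.66 to 9.99.

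Of the degradation genes, Herpud1, an ER membrane protein of the retrotranslocation complex and a strongly stress-inducible gene, had the largest tissue difference of all 49. Stomach arrays lay between 12.20 and 12.51 (median 12.41) and colon arrays between 10.40 and 11.50 (median 11.22). The difference was -1.27 (SE 0.16, adjusted p = 0.000206), and a second probe set gave -1.42. Sel1l, the adaptor of the ubiquitin ligase Syvn1 (Hrd1), was lower in colon by a log2 difference of -0.48 (SE 0.11, adjusted p = 0.00695), and all 4 of its probe sets passed. Derl2, a channel-forming derlin, was higher by 0.39 (SE 0.11, adjusted p = 0.0150), but its other probe set gave -0.01. Syvn1, Edem1 and Derl1 differed by -0.09, -0.15 and -0.17 and did not pass. The other Derl1 probe sets gave 0.12 and -0.10, and neither passed.

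The translocation group leaned to stomach, with 11 of 12 differences negative and a median of -0.28. Of all 8393 genes tested, 4543 were negative. In this group 4 genes passed as lower and 1 as higher (41.7%, against 48.8% of all genes). Sec62 and Sec63, which work beside the Sec61 channel in import after translation, were lower in colon, at 10.91 to 11.39 against 11.44 to 11.95 and at 8.26 to 8.93 against 9.05 to 9.39, with no overlap for either. The differences were -0.61 (SE 0.11, adjusted p = 0.00132) and -0.55 (SE 0.10, adjusted p = 0.00161). A second Sec62 probe set gave -1.17, whereas the other Sec63 probe sets gave -0.06 and -0.20 and did not pass. The channel subunits themselves, Sec61a1 and Sec61b, differed by -0.11 and -0.07.

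The signal peptidase subunits did not move as one. Its subunit Spcs3 was lower in colon (-0.59, SE 0.14, adjusted p = 0.00615), with stomach levels of 11.45 to 11.71 and colon levels of 10.70 to 11.55. Sec11c, one of the alternative catalytic subunits, was higher, with stomach levels of 10.80 to 11.31 and colon levels of 11.27 to 12.33 (0.81, SE 0.16, adjusted p = 0.00302). Spcs1 differed by -0.05 and Spcs2 by -0.33, and neither passed. Ssr4, a subunit of the translocon-associated complex, was lower in colon by a log2 difference of -0.52 (SE 0.13, adjusted p = 0.00773), with Ssr1, Ssr2 and Ssr3 at -0.20, -0.39 and -0.23, none of which passed.

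Of the 14 chaperones and folding enzymes, 12 did not pass, where 48.8% of all genes passed. The differences of the 14 went both ways, from -0.38 to 0.34 with a median of -0.04. Hspa5 ran from 12.09 to 12.68 in stomach and from 11.66 to 13.05 in colon, a difference of 0.07 (95% interval -0.39 to 0.52), which passed only without colon KO 1, at 0.30 (adjusted p = 0.0200). Dnajb9 (ERdj4), a BiP cochaperone, was higher in colon by 0.30 (SE 0.10, adjusted p = 0.0362), and P4hb, a protein disulfide isomerase, was lower by a log2 difference of -0.38 (SE 0.11, adjusted p = 0.0213). Among the 5 glycan transfer genes, only Dad1, a small oligosaccharyltransferase subunit, passed, at -0.36 (SE 0.11, adjusted p = 0.0236), with the catalytic subunit Stt3a at -0.01.

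Retrieval and transport genes leaned to colon, 3 higher and 1 lower with a median of 0.24. Those that passed were 66.7% of only 6 genes, against 48.8% of all genes tested. Kdelr3, a receptor that returns KDEL-bearing proteins to the ER, ran from 7.78 to 8.58 in stomach (median 8.03) and from 8.12 to 9.67 in colon (median 9.38), higher by 0.97 (SE 0.30, adjusted p = 0.0217). Its relative Kdelr1 was higher by 0.39 (SE 0.14, adjusted p = 0.0389) and Sec31a, of the outer COPII coat, by 0.28 (SE 0.07, adjusted p = 0.0116). The inner coat subunit Sec23b was lower in colon, at 10.06 to 10.81 against 11.37 to 11.66 in stomach, by a log2 difference of -1.0 (SE 0.13, adjusted p = 0.000207). Its paralog Sec23a, not a member, went the other way, at 0.99 (SE 0.17, adjusted p = 0.00118).

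In 7 genes the 6 arrays of one tissue did not overlap the 6 of the other, against 30.0% of all genes tested. They were P4hb, Sec62, Sec63, Herpud1, Xbp1, Eif2ak3 and Sec23b, and all were lower in colon. Of the 18 genes that passed, 11 did so in every one of 22 alternative fits. Dnajb9 and Kdelr1 lost their call in 11 fits each, Dad1 in 6, P4hb in 4, Ddit3 and Kdelr3 in 3 each and Sec31a in 1. The number passing was lowest, at 13, without stomach WT 2 and highest, at 27 (5 higher and 22 lower), without colon KO 2; without colon KO 1 it was 22 (12 higher and 10 lower).

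Other genes of the same pathways were set beside these. Of 91 listed, 79 were tested, and 8 were higher in colon and 30 lower (48.1%), with a median of -0.21. In stress signalling, Bhlha15 (Mist1), a factor of zymogenic and acinar cells, was lower by a log2 difference of -2.92, the amino acid response target Asns by -1.72 and the membrane-bound factor Creb3l2 by -1.36. The oxidoreductases that recharge the disulfide isomerases, Ero1a and Ero1b, were at -1.22 and -1.61. Higher in colon were Gfpt1, the first enzyme of hexosamine synthesis (2.03), the disulfide isomerases Pdia5 (1.85) and Agr2 (0.73), and Fam8a1 of the Hrd1 complex (0.76).

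The second question was whether Spdef genotype altered these genes. In stomach, 0 of 49 genes passed the limma test between KO and WT (0.0127% of all genes did), 0 between HET and WT (0% of all genes) and 0 between KO and HET (0.0127% of all genes), and 0 had an unadjusted p under 0.05 in any of these. The members' medians were 0.07, 0.06 and -0.03, against 0.01, -0.01 and 0.01 for all genes. The 95% intervals had a median width to either side of 0.51 before any adjustment, and with the adjustment over all genes differences well above that did not pass. The spread behind these tests is shared with the more variable colon arrays. With each tissue fitted alone, 6, 6 and 2 members had an unadjusted p under 0.05 (12.2%, 12.2% and 4.08%, against 7.53%, 5.15% and 4.24% of all genes), 0 passed, and the smallest adjusted p was 0.384, 0.485 and 0.945. The arrays labelled stomach KO also carry a different processing note, and the note and the genotype cannot be told apart there. Squamous forestomach markers also differed between these arrays, with means of 4.95 and 5.14 in KO, 8.10 and 8.82 in WT and 10.02 and 6.58 in HET. In addition, antral and neck mucous gland markers were at 11.66 and 11.82 in WT, 12.03 and 12.38 in HET and 12.79 and 12.71 in KO, and adipose markers at 9.17 and 9.45 in WT, 8.69 and 9.10 in HET and 8.41 and 8.40 in KO. The part of these cells in the stomach values was not tested.

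Hspa5 stood at 12.09 and 12.34 in stomach WT, 12.51 and 12.68 in HET and 12.26 and 12.50 in KO. Both HET arrays were above the others and the WT and KO arrays overlapped. The differences were 0.16 for KO minus WT, 0.38 for HET minus WT and -0.22 for KO minus HET. Ern2 had the largest difference between KO and WT of the 49 genes, at 9.62 and 8.87 in WT, 9.13 and 9.26 in HET, and 8.48 and 8.22 in KO. Both KO arrays were below the other 4, but the difference of -0.89 had a 95% interval from -2.30 to 0.51 (adjusted p = 1.0). It was -0.85 against HET, and HET minus WT was -0.05.

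By role, the 14 chaperones had a median of 0.15 for KO minus WT (11 positive) and of 0.15 for HET minus WT (14 positive), where 4087 and 3841 of 7858 genes were positive. The stress sensors had medians of -0.12 (2 of 6 positive) and -0.14 (1 of 6), and no median of another role was beyond 0.15 either way. Creld2 had the largest HET minus WT difference, 0.68 (SE 0.47, adjusted p = 1.0). Both chaperone medians share the stomach WT arrays and lean on stomach WT 1. That array was the lowest of the 6 stomach arrays for 10 of 14 chaperones (71.4%, against 18.1% of all genes), and stomach WT 2 for 1. The median deviations of the chaperones from the other stomach arrays were -0.18 in WT 1 and -0.05 in WT 2.

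The remaining sensors showed small differences between stomach KO and WT, with Xbp1 at 0.24, Atf4 at -0.35, Atf6 at -0.08, Eif2ak3 at 0.02 and Ddit3 at -0.17. For HET minus WT they were 0.10, -0.28, -0.17, -0.15 and -0.12, and for KO minus HET 0.14, -0.07, 0.09, 0.17 and -0.04. The smallest unadjusted p values between KO and WT belonged to Derl2 (-0.40), Sel1l (-0.40) and the cochaperone Dnajc3 (0.43), all with an adjusted p of 1.0 in limma. The other Derl2 probe set gave 0.08, and the other Dnajc3 probe sets gave -0.14, 0.37, 0.06 and 0.54.

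In colon, again 0 of 49 genes passed between KO and WT (0.0505% of all genes did), between HET and WT (0.0253%) or between KO and HET (0.0253%). With an unadjusted p under 0.05 there were 5, 3 and 0 members, against 886, 761 and 325 of 7913 genes. The medians were -0.06, 0.04 and -0.05, against 0.06, 0.04 and 0.02 for all genes. The roles differed in sign for KO minus WT, with translocation genes at a median of 0.21 (11 of 12 positive) and glycan transfer at 0.13 (3 of 5), against degradation at -0.34 (0 of 6), retrieval and transport at -0.15 (0 of 6), chaperones at -0.10 (6 of 14) and stress sensors at -0.08 (2 of 6). For HET minus WT translocation was at 0.18 (12 of 12 positive) and degradation at -0.27 (2 of 6), and these share the WT arrays with the former. For KO minus HET they were at 0.04 (9 of 12) and -0.15 (2 of 6). The role medians against WT lean on colon WT 2. Its median deviation from the mean of the other colon arrays was -0.22 for translocation (1 of 12 positive) and 0.36 for degradation (6 of 6). For colon WT 1 the same deviations were -0.07 (4 of 12) and 0.08 (4 of 6). The test of whether the genotype difference itself differed between tissues called 0 members for KO minus HET (0% of all genes) and 0 for KO minus WT (0.0238%), with 0 and 1 members at an unadjusted p under 0.05.

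Sel1l came nearest to the threshold. Its colon levels were 9.45 and 9.29 in WT, 8.76 and 8.80 in HET, and 8.27 and 8.82 in KO, and its stomach levels were 9.54 and 9.72 in WT, 9.17 and 9.38 in HET, and 9.16 and 9.30 in KO. In each tissue both WT arrays were above the 4 others. The colon difference between KO and WT was -0.83 (SE 0.20, adjusted p = 0.318 in limma) and that between HET and WT was -0.59 (SE 0.20, adjusted p = 0.479). The other 3 Sel1l probe sets gave -0.22, -0.65 and -0.24 for KO minus WT in colon, and none passed.

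The next were Sec63 (0.51, adjusted p = 0.40), Derl1 (-0.36, adjusted p = 0.421), Atf4 (-0.50, adjusted p = 0.421) and Sec31a (-0.31, adjusted p = 0.421). For Sec63 the probe sets disagreed, with the other 2 at -0.09 and -0.45. Atf4 was at 11.37 and 11.05 in colon WT, 10.90 and 10.96 in HET, and 10.42 and 10.99 in KO, so that both WT arrays were above the rest by a narrow margin.

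For the other sensors and Hspa5, KO minus WT in colon was 0.08 for Xbp1, -0.07 for Atf6, -0.51 for Eif2ak3, 0.07 for Ddit3, -0.09 for Ern2 and -0.17 for Hspa5. HET minus WT was 0.17, -0.29, -0.38, 0.30, 0.72 and -0.03 in the same order, and -0.27 for Atf4. KO minus HET was -0.09, 0.22, -0.13, -0.23, -0.81 and -0.14, and -0.22 for Atf4. None of these passed.

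Of the other pathway genes, 1 was lower in KO than in HET in both tissues, Creb3l4, an ER membrane-bound transcription factor related to Atf6. It was at 8.66 and 8.60 in stomach WT, 8.54 and 8.54 in HET, and 5.20 and 5.84 in KO. In colon it was at 9.12 and 8.11 in WT, 9.30 and 9.02 in HET, and 6.09 and 6.16 in KO. The 4 KO arrays were below the filter level and all 8 others above it. Since the gene passed the filter only through the groups where it is high, its size is given as a bound against the filter level. Against WT, Creb3l4 was at least 4.29-fold lower in KO in stomach and at least 4.24-fold lower in colon. It was at least 4.03-fold lower in KO than in HET in stomach and at least 6.18-fold lower in colon. For KO minus HET, the limma adjusted p of 0.0366 in stomach and 0.0179 in colon rest on KO readings below the filter level. They are given as a description only. No member passed in these comparisons. The difference was negative in each of 21 alternative fits per tissue, but the call was lost in 13 of them in stomach (adjusted p from 0.00146 to 0.325) and in 9 in colon (0.000925 to 0.918), among them the replicate block and fits without either array of stomach WT, either of colon HET or colon KO 2.

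**Figure D2:**
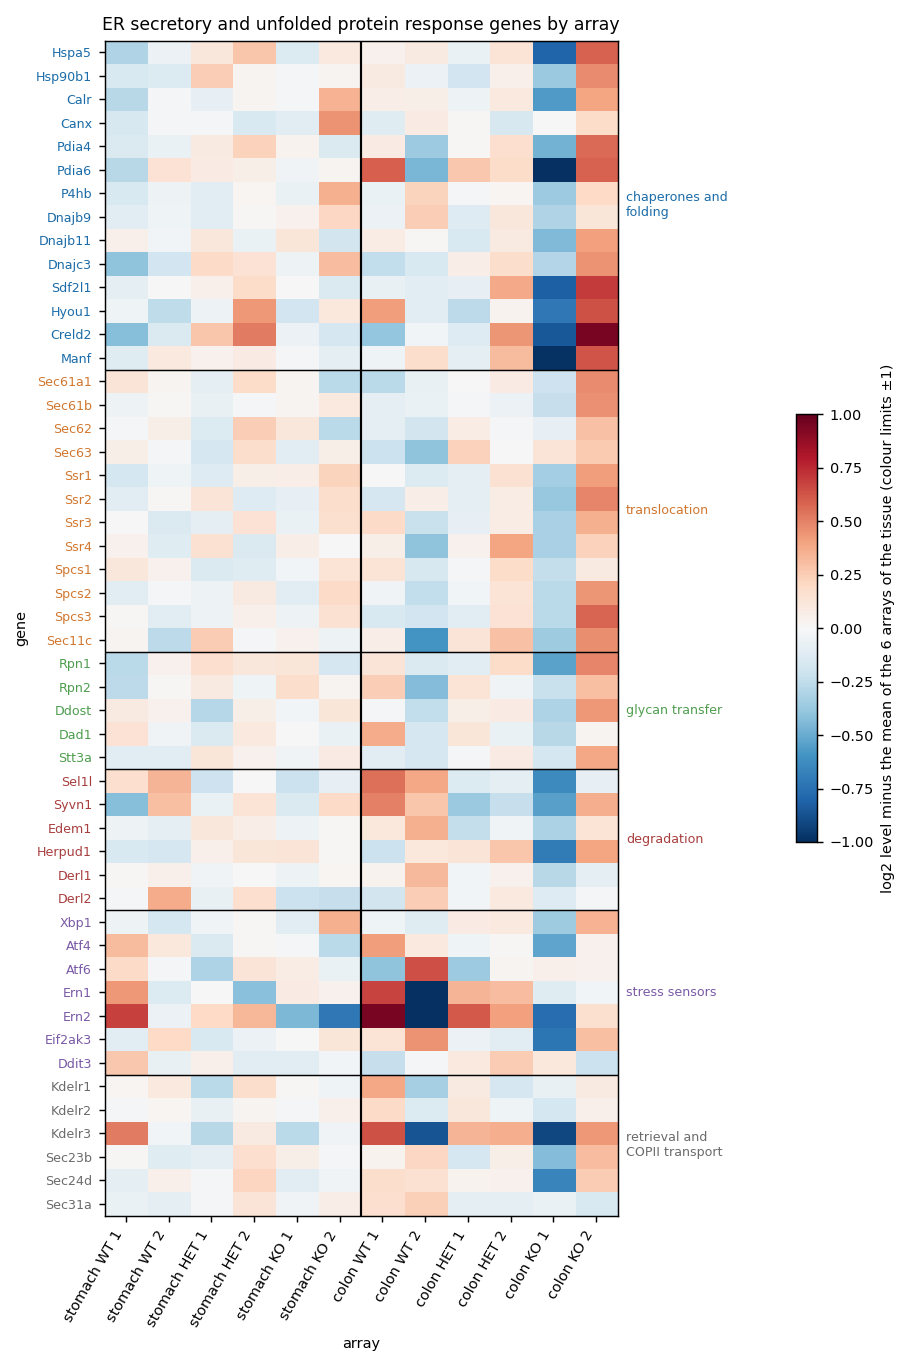
Level of each of the 50 genes (rows, grouped by role) on each of the 12 arrays (columns), as the log2 difference from the gene's mean over the 6 arrays of its tissue, with colours limited at 1 either way. The column of colon KO 1 is blue and that of colon KO 2 red for most rows, while the 6 stomach columns are pale.

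The colon KO means cover 2 arrays that differed widely in these genes. KO 2 was above KO 1 for 46 of 49 genes (93.9%, against 49.2% of all genes tested), with a median of 0.71 (all genes -0.01). For 23 genes, KO 1 was the lowest and KO 2 the highest of the 6 colon arrays, which is 46.9% of the members against 3.01% of all genes. Counted singly, KO 1 was the lowest for 36 genes (73.5%, against 9.76% of all genes). KO 2 was the highest for 29 (59.2%, against 23.5% of all genes). The mean over the 50 genes was 10.27 in KO 1 and 10.98 in KO 2, on either side of 10.57 to 10.77 in the other 4 colon arrays. This pattern was seen in the data first and is a description, with no test.

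**Figure D3:**
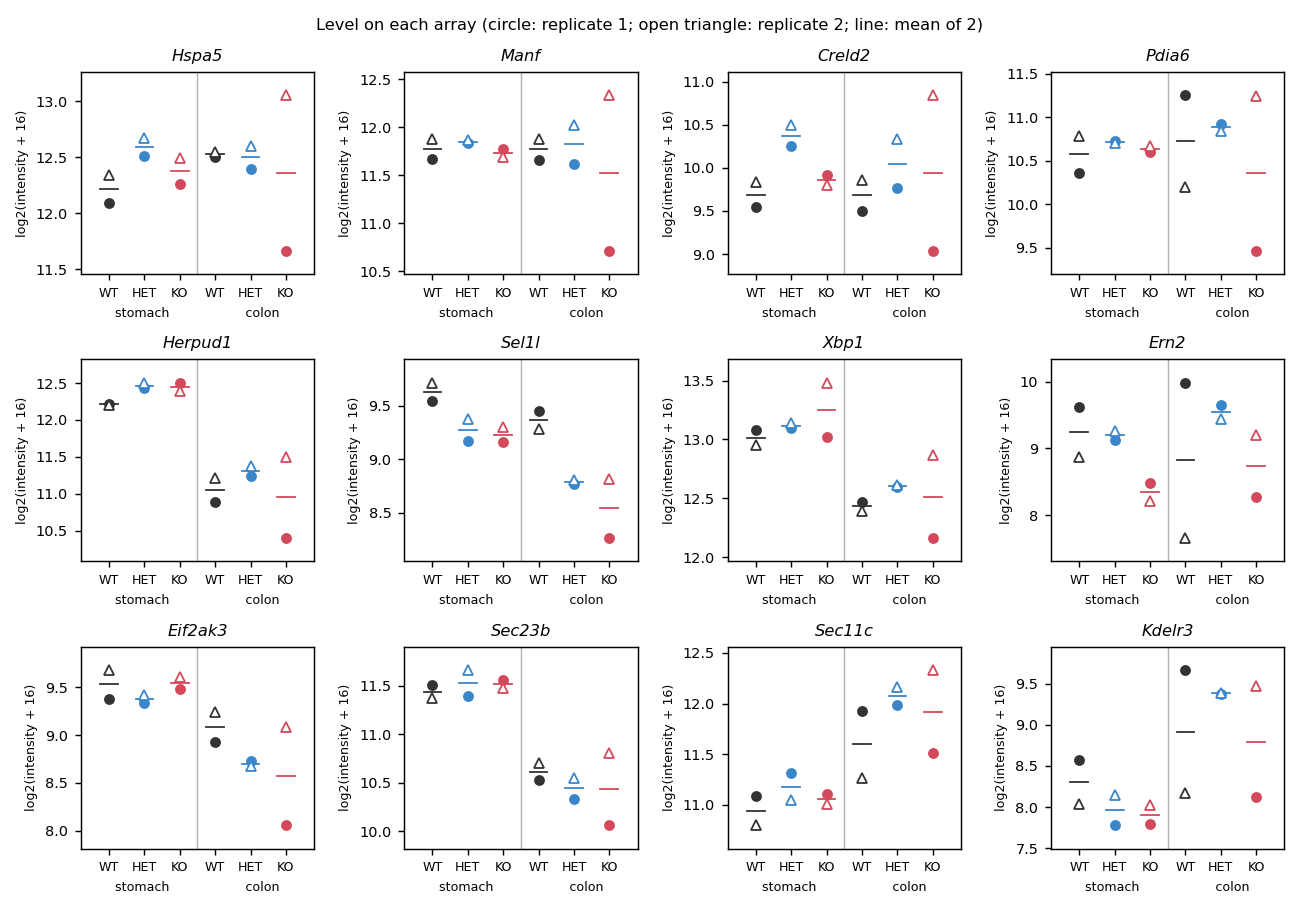
Level of 12 genes (vertical axes, log2(intensity + 16)) on each array by tissue and genotype, with a filled circle for replicate 1, an open triangle for replicate 2 and a line for their mean. Hspa5, Manf, Creld2 and Pdia6 spread more between the 2 colon KO arrays (1.39 to 1.8) than over all 6 stomach arrays (0.21 to 0.95), and Sec23b and Herpud1 are lower in every colon array.

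Chaperones had the largest median difference of the 6 roles, with KO 2 above KO 1 in 14 of 14 and a median of 1.0. Creld2, an ER protein induced by stress, was at 9.50 and 9.86 in colon WT, 9.76 and 10.33 in HET, 9.04 in KO 1 and 10.84 in KO 2. Manf, a secreted stress-induced factor retained in the ER, was at 11.66 and 11.88 in WT, 11.62 and 12.02 in HET, 10.72 in KO 1 and 12.33 in KO 2. For both, the WT and HET arrays lay between the KO arrays.

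Hspa5 followed the same order, with 12.50 and 12.55 in colon WT, 12.40 and 12.60 in HET, 11.66 in KO 1 and 13.05 in KO 2. The oxidoreductase Pdia6 differed by 1.78 between the KO arrays, Sdf2l1, a component of chaperone complexes, by 1.52 and Hyou1, an exchange factor for BiP, by 1.35. At the other end, Canx, the membrane lectin that holds glycoproteins during folding, differed by 0.18.

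Translocation genes went the same way in 12 of 12 (median 0.68), glycan transfer genes in 5 of 5 (0.56) and degradation genes in 6 of 6 (0.51). Rpn1, an oligosaccharyltransferase subunit, differed by 1.02 and Herpud1 by 1.10. Retrieval and transport genes did so in 5 of 6 (0.49), with Kdelr3 at 1.35 and Sec31a at -0.08. Of the stress sensors 4 of 6 did (0.63): Eif2ak3 differed by 1.03, Ern2 by 0.92, Xbp1 by 0.70 and Atf4 by 0.57, against Atf6 at -0.01 and Ddit3 at -0.32. Ddit3, the marker of terminal ER stress signalling, was thus the member that went furthest the other way, at 8.64 in KO 1 and 8.32 in KO 2.

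In these genes no other pair of replicates was as far apart. The members' median difference between replicate 2 and replicate 1 was 0.04, 0.12 and 0.07 in stomach WT, HET and KO, and -0.07 and 0.14 in colon WT and HET. In stomach KO, replicate 2 was above replicate 1 for 30 of 49 genes, and 1 gene had the KO arrays at both ends in that order. Among other pathway genes in colon KO, replicate 2 was above replicate 1 in 64 of 79, with a smaller median of 0.34. KO 1 was the lowest and KO 2 the highest of the colon arrays in 13 of the 79 (16.5%).

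Genes with and without an ER stress element shared the split. Kdelr3 and Sec24d, which hold the unfolded protein response element, are counted here among those without. The 9 genes whose window holds an ER stress element of either kind differed between the KO arrays by 0.18 to 1.8 (median 0.96), 6 of them with KO 1 lowest and KO 2 highest. The 31 with a window and no such element, 30 of them tested, had a median of 0.56, 13 with that order, and the 10 with no window a median of 0.84, 4 with that order. The 3 ranges overlapped. Between tissues, 1 of the 9 passed (Herpud1), 15 of the 30 without an element and 2 of the 10 with no window, where 48.8% of all genes did.

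Taken alone, the 2 colon KO arrays gave members' medians of opposite sign. Without KO 1 the members' median KO minus WT difference was 0.40, positive for 39 of 49, and without KO 2 it was -0.33, negative for 45. Against HET the medians were 0.28 (44 positive) and -0.37 (45 negative). In these fits 0 members passed the adjusted threshold in limma, the smallest adjusted p being 0.102, 0.144, 0.156 and 0.306. An unadjusted p under 0.05 was found for 42.9%, 40.8%, 24.5% and 32.7% of members, against 15.6%, 9.15%, 11.5% and 3.18% of all genes. The lone KO array is assumed there to vary like the other groups, and as the split was seen first these shares only describe it. For Hspa5 the value moved from -0.17 to 0.53 without KO 1 and -0.87 without KO 2. For Manf it was 0.57 and -1.06, and for Creld2 1.16 and -0.64.

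**Figure D4:**
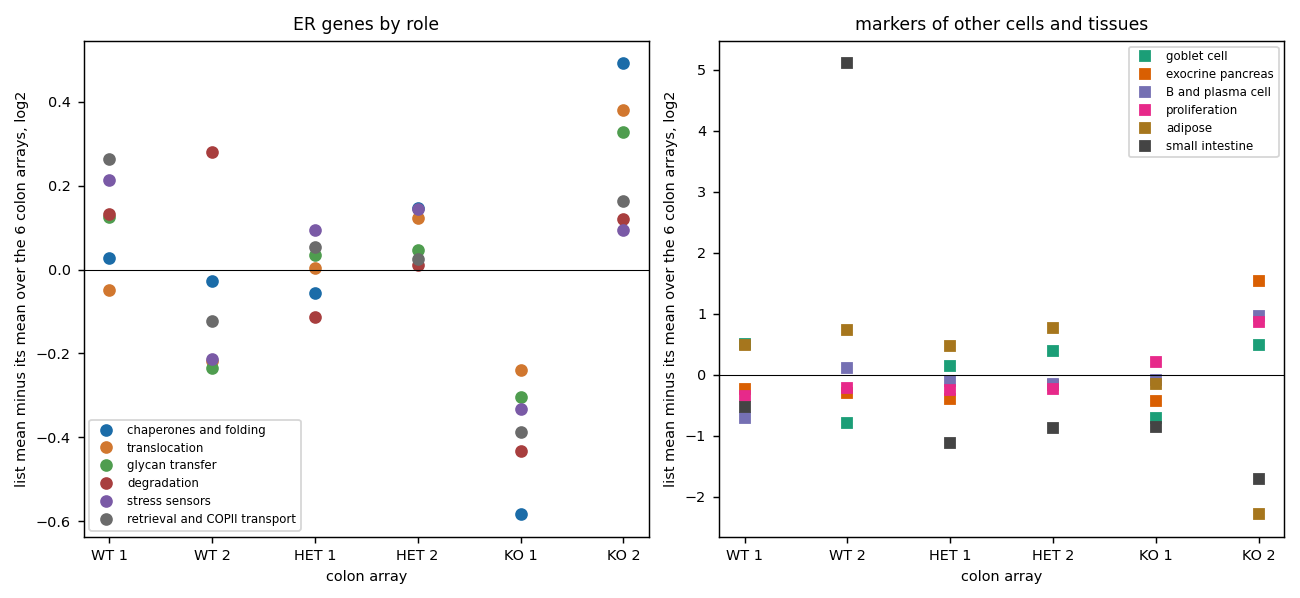
Mean level of each role group (left) and of marker lists of other cells and tissues (right) on the 6 colon arrays (horizontal axis), as the log2 difference from the list's mean over those arrays; the vertical scales differ. All 6 role groups are lowest in KO 1, and the pancreas, B and plasma cell and proliferation lists are highest in KO 2, while the adipose list is lowest there.

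Markers of other cells also differed between the colon KO arrays. Of the lists given here, only exocrine pancreas had its lowest mean in KO 1, and by a narrow margin. The goblet cell mean of KO 1 was below all other colon arrays except WT 2. Against the WT and HET arrays, proliferation markers were higher in both KO arrays and adipose markers lower in both. The goblet cell list (7 of 8 genes measured) had a mean of 12.31 in KO 1 and 13.50 in KO 2, with 13.51 and 12.21 in WT and 13.15 and 13.40 in HET. Within it Retnlb was at 10.40 in KO 1 and 14.21 in KO 2 and Spink4 at 12.61 and 14.42, whereas Tff3, Zg16 and Clca1 were lower in KO 1 by less. Fcgbp (12.66 and 13.97) and Sytl2 (9.05 and 9.92) were also lower in KO 1. Zg16, Clca1, Fcgbp and Spink4 were lowest of the 6 colon arrays in KO 1, and Tff3, Retnlb and Sytl2 were not. The low list mean of WT 2 was a matter of Retnlb, at 6.62 there, while Tff3 (13.90) and Zg16 (14.30) were highest of the 6 colon arrays in WT 2.

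The B and plasma cell list (5 of 8 measured) was at 7.96 in KO 1 and 9.0 in KO 2, against 7.34 to 8.16 in the other 4, and the antibody joining chain gene Jchain was at 13.01 and 13.71. Exocrine pancreas genes (11 of 15 measured) had a mean of 5.74 in KO 1 and 7.71 in KO 2, against 5.78 to 6.01. In KO 2, 5 of the 11 were still below the filter level, among them Cpa1 at 6.16 and Prss2 at 6.29, while Ctrb1 was at 7.63 against 4.17 to 5.03 in the others. The proliferation list was at 9.16 and 9.80, against 8.60 to 8.73, and the adipose list at 9.50 and 7.37, against 10.12 to 10.42. The part of these cells in the ER gene values was not tested.

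The values against WT in colon depended on which WT array was kept. These arrays also carry different processing notes, RMA for WT 1 and MAS5 for WT 2, and note and array cannot be told apart. With WT 2 as the only WT array the members' median for KO minus WT turned from -0.06 to 0.07 (29 of 49 positive) and that for HET minus WT went from 0.04 to 0.17; without WT 2 they were -0.09 and 0.01. Ern2 was at 9.99 in colon WT 1 and 7.66 in WT 2, with 9.64 and 9.45 in HET and 8.27 and 9.20 in KO. WT 2 was the lowest and KO 1 the next. With colon WT 2 as the only WT array, HET minus WT for Ern2 was 1.90 (SE 0.39, adjusted p = 0.0122, limma), the only member called in any genotype fit, and without colon WT 2 the KO minus WT difference was -1.25 (adjusted p = 0.281). Kdelr3, at 9.67 in WT 1 and 8.17 in WT 2, and Pdia6, at 11.26 and 10.20, also differed widely between the WT arrays; both were picked after their values were seen.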

How the data were processed

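The authors deposited 1 table of probe set intensities from 12 Affymetrix HT Mouse Genome 430 arrays; the submitters' processing notes give MAS5 for 9 arrays but RMA for colon WT 1 and both stomach KO arrays, with versions not given in the sources used here. The deposited intensity values ran from 0.163 to 28621. Of 22716 probe sets, 90 controls were left out; 18003 of the rest had 1 gene symbol, 287 several and 4336 none. Symbols were updated through RefSeq for 17977. The number of arrays limits the precision.

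Values were quantile normalized as log2(intensity + 16). A gene was tested in a tissue where it reached the 40th percentile in at least 2 of 6 arrays (7858 genes in stomach, 7913 in colon). All 12 arrays entered 1 limma 3.58.1 model (R 4.3.3) with a mean per group and eBayes with an intensity trend; the Benjamini-Hochberg adjustment ran over all genes tested, with a threshold of 0.05. The procedure was tested on simulated data with 100 genes changed by a log2 size of 1 and 100 by 2. For KO minus WT in colon it recovered 47% and 86% of them, with 3 false calls. Between tissues it recovered 83% and 94%, with 13 false calls. The simulated noise of a gene had the same spread on all arrays and was independent between genes. These rates therefore do not cover the wider spread of the real colon arrays. Nor do they cover the shift that members shared between the colon KO arrays. Named genes were Spdef, members past the threshold, up to 3 members of each role with the largest differences, the stress sensors and Hspa5; others were chosen after their values were seen, and the members and lists were chosen with earlier results of these data known. Alternatives were the offset, the filter, the normalization, the trend, each probe set, each tissue alone, HET and KO only, replicate blocks and leaving out each array.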

Additional observations from a re-analysis of the deposited data

How the results depend on the processing

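Over 8 genotype and interaction results, 167 of 168 alternative fits called 0 members in limma. The count for HET minus WT in colon ranged from 0 to 1 when 1 array at a time was left out, the 1 being Ern2 without colon WT 1. The count of members that differed between colon and stomach was 18 and ranged from 13 to 27 over fits leaving out 1 array. It was 14 with HET and KO arrays only, 16 without the intensity trend and 18 with offsets of 1 or 64, without quantile normalization and under the other filters. Replicate numbers were not shown to pair the arrays: same-numbered deviations correlated at -0.32 to 0.04 within stomach and -0.18 to 0.29 within colon. With the replicate number within each tissue as a block the count was 19, and with genotype and number across tissues as a block it was 21; 0 members were called in each genotype comparison with the block. With 2 arrays a group and the adjustment over all genes, member differences between KO and WT as large as -0.89 (Ern2, stomach) did not pass, and dim Ern1 could not be tested.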
